A study of Drosophila melanogaster with 8 samples.

Results

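The proteasome subunit genes of Drosophila melanogaster were examined for binding of NELF-E, a subunit of the Negative Elongation Factor, in peak lists from ChIP-seq, the sequencing of DNA recovered by immunoprecipitation of crosslinked chromatin. Members were the protein-coding genes whose symbol starts with Prosalpha, Prosbeta, Rpn or Rpt followed by a digit, which gave 48 of 13986 genes. A total of 32 are general subunit genes and 16 carry a T or R suffix that marks a paralog, most of them known for expression in the testis. These 16 are called testis-type here after the suffix alone, since the lists do not measure RNA. The libraries came from Kc167, a female line of embryonic origin that is described as hemocyte-like. Cells were transfected with an siRNA against AGO2 (siAGO2) or went through the same transfection without any RNA (mock), and were collected 3 days later. No group received a non-targeting siRNA, so the effect of AGO2 loss and that of the siRNA itself cannot be told apart. There were 2 libraries per group, and the labels do not say whether they came from separate cultures, so the spread between them may be technical.

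The proteasome degrades proteins that carry ubiquitin chains. Its 20S core is a stack of outer alpha rings, which gate the entrance, and inner beta rings, which hold the proteolytic sites. The 19S cap adds a ring of Rpt ATPases that unfold the substrate and a set of Rpn subunits that bind and remove ubiquitin or serve as scaffold. Since the subunits are used in fixed proportions, their genes are active together in nearly all dividing cells. NELF binds RNA polymerase II shortly after initiation and holds it in a paused state, and NELF peaks are therefore found mostly just downstream of starts.

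Promoter sequences are shown for 6 genes that span the range of NELF-E binding among the members. Prosbeta7 had the highest peak of the family and Rpn1 the largest log2 change between siAGO2 and mock libraries, one that did not pass the test. Prosalpha6 and Prosalpha6T are a general gene and its testis-type paralog, with a peak in every library at the general gene and none at the paralog. Prosbeta2, the lowest-ranked general gene, is set beside Prosbeta2R2, which was the only testis-type gene with a peak near its start. Each sequence runs 5′ to 3′ from 250 bases before the 5′ end of the gene model and includes the first 30 bases of it (RefSeq genome sequence, Release 6, the same assembly as dm6). Capitals mark matches to any of the 8 motifs searched on both strands, so a match on the other strand appears as the reverse complement. The windows are chr3R:5358335-5358614 (minus strand) for Prosbeta7, chr3L:19914801-19915080 (plus strand) for Rpn1, chr2L:10221101-10221380 (plus strand) for Prosalpha6, chr2L:13231789-13232068 (plus strand) for Prosalpha6T, chr3L:14999701-14999980 (plus strand) for Prosbeta2 and chr3R:5219499-5219778 (minus strand) for Prosbeta2R2.
Prosbeta7: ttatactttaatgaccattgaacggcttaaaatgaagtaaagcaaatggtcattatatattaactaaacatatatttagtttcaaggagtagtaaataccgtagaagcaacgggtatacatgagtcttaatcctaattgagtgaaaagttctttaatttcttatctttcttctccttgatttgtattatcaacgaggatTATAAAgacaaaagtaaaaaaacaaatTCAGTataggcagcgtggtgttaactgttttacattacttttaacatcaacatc
Rpn1: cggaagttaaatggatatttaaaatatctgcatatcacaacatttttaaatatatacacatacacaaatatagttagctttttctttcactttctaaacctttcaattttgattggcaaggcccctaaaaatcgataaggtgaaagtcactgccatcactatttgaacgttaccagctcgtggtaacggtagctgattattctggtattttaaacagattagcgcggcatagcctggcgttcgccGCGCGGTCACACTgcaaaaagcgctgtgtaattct
Prosalpha6: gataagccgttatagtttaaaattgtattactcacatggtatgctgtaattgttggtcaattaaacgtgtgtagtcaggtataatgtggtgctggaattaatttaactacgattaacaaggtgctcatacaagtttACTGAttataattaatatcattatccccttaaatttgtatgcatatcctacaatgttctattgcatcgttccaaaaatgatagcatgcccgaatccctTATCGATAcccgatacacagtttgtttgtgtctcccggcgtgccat
Prosalpha6T: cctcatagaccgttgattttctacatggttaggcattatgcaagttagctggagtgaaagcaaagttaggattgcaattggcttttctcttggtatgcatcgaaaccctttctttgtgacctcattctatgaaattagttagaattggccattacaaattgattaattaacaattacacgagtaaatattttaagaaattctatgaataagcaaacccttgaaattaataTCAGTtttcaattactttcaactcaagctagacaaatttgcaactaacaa
Prosbeta2: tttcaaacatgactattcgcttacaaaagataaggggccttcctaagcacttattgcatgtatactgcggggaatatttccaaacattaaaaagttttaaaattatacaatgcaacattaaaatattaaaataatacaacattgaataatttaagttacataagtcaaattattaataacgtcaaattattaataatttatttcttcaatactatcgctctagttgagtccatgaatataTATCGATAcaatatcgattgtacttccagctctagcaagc
Prosbeta2R2: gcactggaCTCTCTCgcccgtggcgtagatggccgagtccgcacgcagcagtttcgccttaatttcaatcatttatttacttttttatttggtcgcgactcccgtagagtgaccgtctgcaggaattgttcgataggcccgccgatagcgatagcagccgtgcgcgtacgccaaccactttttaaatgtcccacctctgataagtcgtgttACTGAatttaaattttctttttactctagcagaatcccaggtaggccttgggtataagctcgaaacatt

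The DRE, the element TATCGATA that the factor DREF binds, appeared in 11 of 32 general promoters and in none of the 16 testis-type promoters. The share of all 13968 protein-coding promoters on the main chromosomes with this motif was 9.21%, and it was 15.6% among the 5175 genes with a NELF-E start peak in all 4 libraries. The general genes with a DRE were Prosalpha3, Prosalpha5, Prosalpha6, Prosbeta1, Prosbeta2, Prosbeta6, Rpt5, Rpn3, Rpn7, Rpn12 and Rpn13. In the sequences above it stands near the 3′ end of the Prosalpha6 and Prosbeta2 windows and is missing from both paralogs. The GAGA element GAGAG ran the other way, with 3 of 32 general promoters (Prosbeta5, Rpn7 and Rpn13) and 6 of 16 testis-type promoters, against 28.2% of all promoters. The core of Ohler motif 1, GGTCACACT, was found in 4 general promoters (Prosalpha2, Prosbeta3, Rpn1 and Rpn7) and in no testis-type promoter, against 5.49% of all promoters and 11.2% of those with a start peak in all 4 libraries. The TATA box TATAAA was found in 13 general and 5 testis-type promoters, against 44.4% of all promoters. The initiator core TCAGT was found in 18 general and 8 testis-type promoters, against 49.1% of all. The antioxidant response element TGACNNNGC, the site of the CNC family of factors, was found at Prosbeta3, Rpn1 and Prosbeta4R2 alone, against 8.05% of all promoters. At Prosbeta3 and Rpn1 its match overlapped that of the Ohler motif 1 core, and overlapping matches were counted for each motif. One spelling of the pause button, CGGACG, was found only at Rpn8 among the members (4.10% of all promoters), and the E-box CACGTG at none of them (3.35% of all promoters). These are counts of letters in a fixed window, and no test was run on the lists. The median GC content was 33.2% in general and 33.0% in testis-type promoters, against 37.5% in all promoters.

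The 4 peak lists held 5904 and 6206 peaks in the siAGO2 libraries (replicates 1 and 2), against 7944 and 6933 peaks in the mock libraries. Read totals were not part of the lists, and the number of background fragments that covers a position of the genome, a measure of depth, was 1.18 and 1.48 in siAGO2 and 4.46 and 2.19 in mock libraries. Both mock libraries were thus the deeper ones, and depth and treatment cannot be told apart. Of 10 hemocyte marker genes, 7 had a start peak in all 4 libraries, among them the GATA factor gene srp and its cofactor ush, while NimC1 and He had none. Of 12 genes known from the male germline, 9 had none and 1 (bol) had a peak in all 4 libraries. Among all 13986 protein-coding genes, 37.0% had a start peak in all 4 libraries and 7156 genes had none in any library. Each library was a pool of many cells, so binding in fewer cells and less binding per cell cannot be told apart.

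General subunit genes almost all had a NELF-E peak at the start, and testis-type genes almost all had none. A start peak was a peak that overlapped the 500 bp on either side of an annotated transcript start by at least 1 bp. Such a peak was found at 30 and 31 of the 32 general genes in siAGO2 libraries, against 31 and 31 in mock libraries. Among all protein-coding genes the share was 39.1% and 41.1% in siAGO2 libraries, against 48.1% and 43.5% in mock libraries. In all 4 libraries 30 general genes had one, against 37.0% of all genes, and 31 had one in at least 1 library, against 48.8% of all genes. Exactly 1 of the 16 testis-type genes had a start peak in each library, and it was Prosbeta2R2 every time. The difference between siAGO2 and mock libraries was −0.5 general genes (30.5 ± 0.707 in siAGO2 against 31 ± 0 in mock libraries, SD, n = 2 each; exact permutation test, two-sided p = 1) and 0 testis-type genes (p = 1, exact). With 2 libraries against 2, the smallest p-value that this test allows is 0.333.

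**Figure D1:**
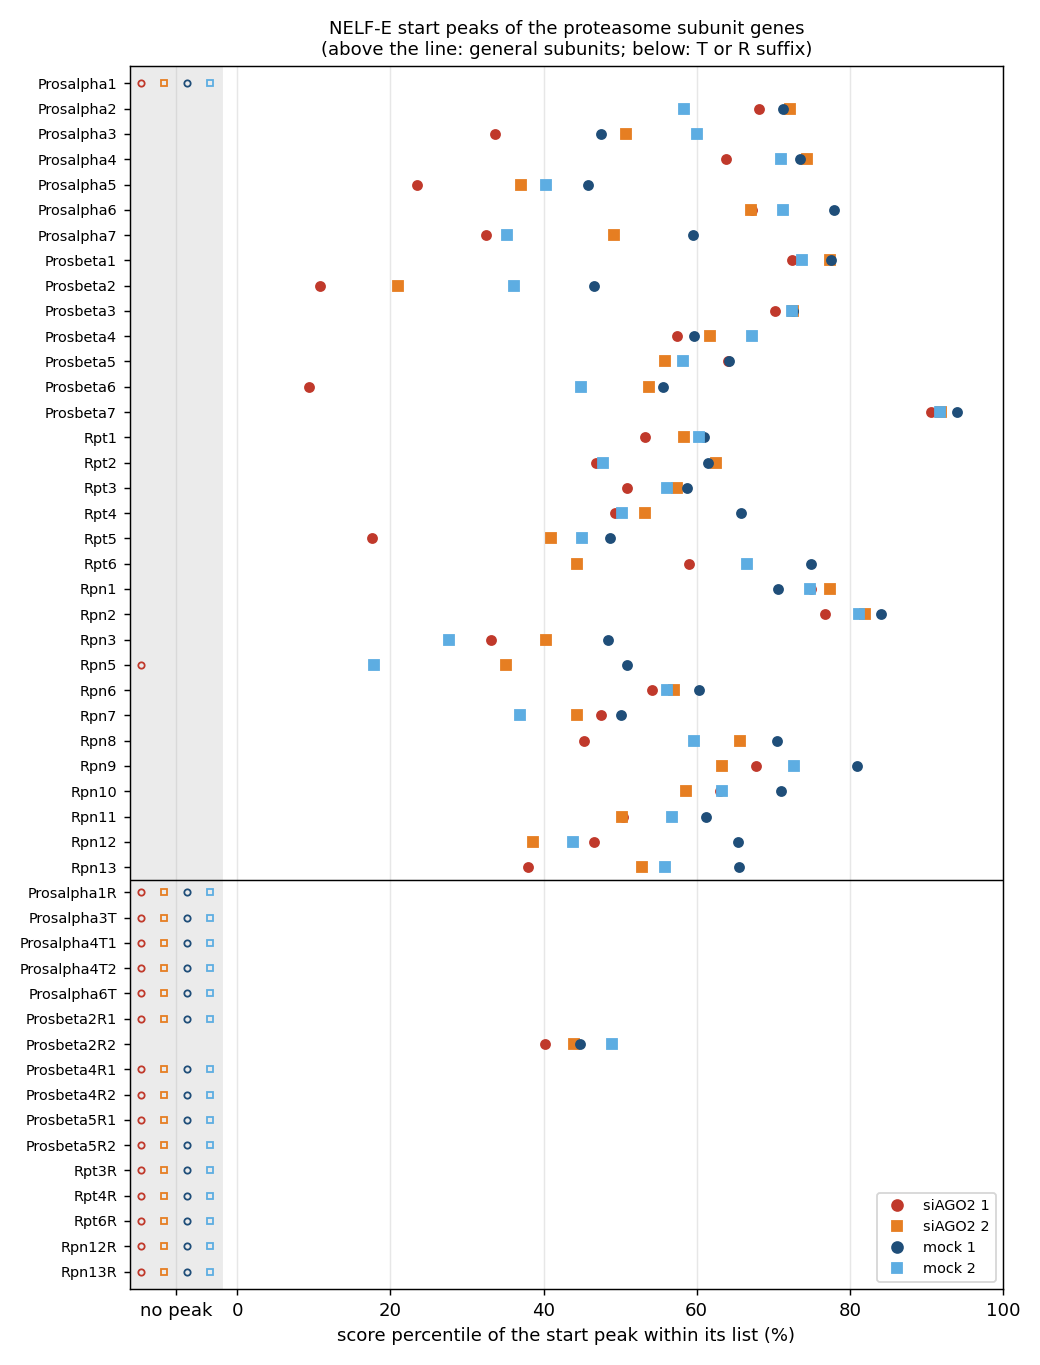
Score percentile of the start peak of each proteasome subunit gene within its own peak list (x axis, in %), with 1 symbol for each of the 2 siAGO2 and 2 mock libraries and open symbols in the grey strip for libraries without a start peak. The general genes above the line spread from 9.33% (Prosbeta6 in siAGO2 1) upward, led by Prosbeta7 at 90.6 to 94.0%. Of these genes, Prosalpha1 lies in the strip for every library and Rpn5 for siAGO2 1. The genes below the line lie in the strip except Prosbeta2R2.

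The presence of a start peak held for every module of the particle. In the 20S core it was found in all 4 libraries at 6 of 7 alpha ring genes and at 7 of 7 beta ring genes. In the 19S cap it was found in all 4 libraries at 6 of 6 ATPase genes and at 11 of 12 non-ATPase genes. Stricter rules were then applied to the peaks. Counting only peaks that span a transcript start, 25 and 27 general genes had one in siAGO2 libraries, against 30 and 25 in mock libraries, and no testis-type gene did. Of all protein-coding genes 27.3% and 29.7% had such a peak in siAGO2 libraries, against 40.2% and 33.0% in mock libraries. With peaks of −log10 q of at least 5 only, 28 and 31 general genes had a start peak in siAGO2 libraries, against 31 and 31 in mock libraries. The shares of all genes were then 36.4% and 38.0% in siAGO2 libraries, against 46.3% and 41.0% in mock libraries. Among other gene families that are active in most cells, 76 of 88 cytoplasmic ribosomal protein genes and 7 of 8 genes of the CCT chaperonin (which folds actin and tubulin) had a start peak in all 4 libraries.

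**Figure D2:**
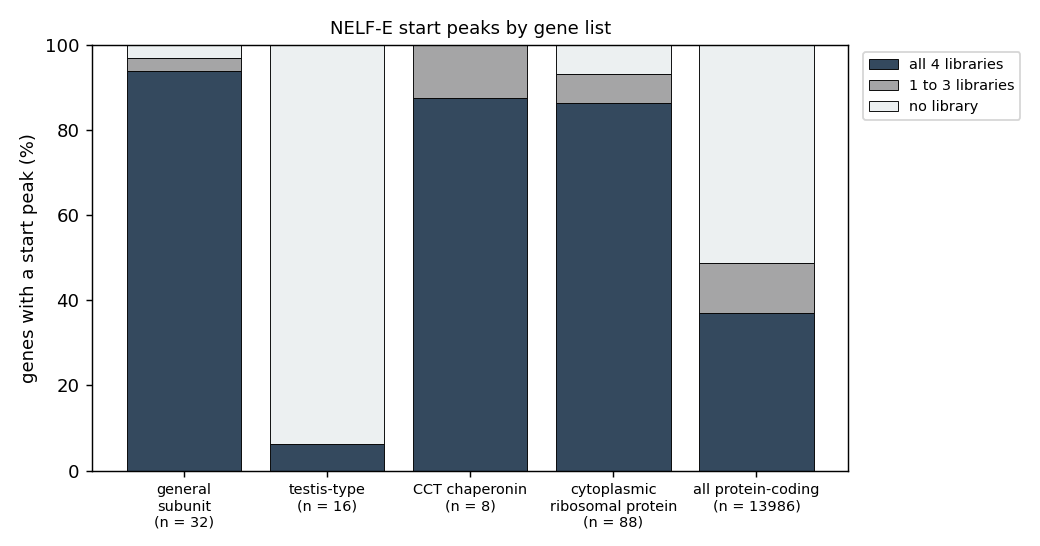
Percentage of genes with a NELF-E start peak (y axis) in all 4 libraries, in 1 to 3 libraries or in none, for the general and testis-type proteasome genes, CCT chaperonin genes, cytoplasmic ribosomal protein genes and all protein-coding genes. The general subunit bar reaches 93.8% for all 4 libraries, against 6.25% for the testis-type genes and 37.0% for all protein-coding genes.

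The single general gene without a peak in any library was Prosalpha1, which encodes an alpha ring subunit and lies on chromosome arm 2R, 7827303 to 7828678, minus strand. Its paralog Prosalpha1R (2R, 7830413 to 7831771, minus strand) also had none. The encoded proteins are identical over 244 residues, and the coding bases are identical too. All 952 stretches of 50 bases in the start window of Prosalpha1 occur more than once in the genome, as do the 952 of Prosalpha1R. The authors sequenced reads of 50 bp and removed those with a mapping quality under 20, so that a read lying wholly in these windows has no unique place. A missing peak at this pair therefore says nothing of NELF-E binding. Among the other members, repeated stretches made up 3.26% of the window of Prosalpha3 and 6.93% of that of Rpn3, and none of the remaining windows. The start windows of the other 14 testis-type genes without a peak thus hold no repeated stretch of this length.

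Rpn5 was the other incomplete general gene (3R, 5789493 to 5791569, plus strand). It encodes a PCI-family subunit of the 19S lid. It had no start peak in siAGO2 1, a peak of 22 fragments at the summit in siAGO2 2, and peaks of 69 and 20 fragments in the mock libraries. These peaks stood at percentile 35.2 of siAGO2 2 and at percentiles 50.9 and 17.9 of the mock libraries, where the percentile ranks the score within its list. The summits lay upstream, at −516 to −524 bp from Rpn5, and 97 to 105 bp downstream of an annotated start of Hat1, a histone acetyltransferase gene on the opposite strand. The nearest start of Hat1 lies 109 bp upstream of that of Rpn5. A separate peak nearer to the start of Rpn5 itself was present in siAGO2 2 (13 fragments) and in mock 1 (41 fragments).

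The strength of the start peaks was spread over most of the range of each list. The median percentile of the 30 general genes with a start peak in all 4 libraries was 52.1 and 57.2 in siAGO2 libraries, against 64.8 and 58.3 in mock libraries. For all 5175 genes with such peaks the medians were 61.7 and 64.5 in siAGO2 and 71.6 and 67.1 in mock libraries, so the general subunit genes stood in the middle of the lists and below the median gene start in each library. Median deposited folds over background were 8.68 and 8.60 in siAGO2 libraries, against 8.41 and 8.19 in mock libraries, for the 30 general genes, and 10.6 and 10.4 in siAGO2 against 9.90 and 10.1 in mock libraries for all genes. The modules of the particle overlapped widely. Median percentiles were 48.7 and 58.9 in siAGO2 and 65.4 and 59.1 in mock libraries at the alpha ring genes, and 64.0 and 61.7 in siAGO2 and 64.2 and 67.2 in mock libraries at the beta ring genes. They were 50.1 and 55.3 in siAGO2 and 61.2 and 53.2 in mock libraries at the Rpt genes, and 50.4 and 57.0 in siAGO2 and 65.5 and 56.7 in mock libraries at the Rpn genes.

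Prosbeta7, a structural beta ring subunit (3R, 5357012 to 5358364, minus strand), led the family in every library. Its start peak held 101 and 115 fragments at the summit in siAGO2 libraries, against 216 and 162 fragments in mock libraries. The deposited fold was 37.3 and 35.2 in siAGO2 and 21.6 and 25.6 in mock libraries, and the percentile was 90.6 and 91.8 in siAGO2 and 94.0 and 91.8 in mock libraries. Fragment numbers carry the depth of each library, though less so at the strongest peaks, and percentiles depend on the length of each list. The start peak of srp held 257 and 261 fragments in siAGO2 libraries, against 292 and 286 in mock libraries. Median fragments over the 5175 genes with a start peak in all 4 libraries were 35 and 41 in siAGO2, against 119 and 64 in mock libraries. The percentile of Prosbeta7 moved by less than 4 points over the 4 libraries. Rpn2, the scaffold that carries the ubiquitin receptor Rpn13 (3R, 29153524 to 29157255, plus strand), came next by percentile with 76.7 and 81.9 in siAGO2 and 84.1 and 81.2 in mock libraries. Its summits lay nearer to Slbp than to Rpn2, as set out below. Prosbeta1, the caspase-like protease subunit (2R, 16013805 to 16014787, minus strand), had percentiles of 72.5 and 77.4 in siAGO2 and 77.5 and 73.7 in mock libraries. Rpn1, the scaffold on which shuttle factors with ubiquitin-like domains dock (3L, 19915051 to 19918160, plus strand), had 75.0 and 77.3 in siAGO2 and 70.6 and 74.7 in mock libraries. Rpn1 was the only general gene of the 30 at which both siAGO2 percentiles were above both mock percentiles. Prosbeta3, another structural beta ring subunit (3R, 9005313 to 9006226, minus strand), had 70.2 and 72.5 in siAGO2 and 72.6 and 72.4 in mock libraries.

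The lower end held catalytic and structural subunits alike. Prosbeta2, the trypsin-like protease subunit (3L, 14999951 to 15001319, plus strand), had percentiles of 10.9 and 21.0 in siAGO2 and 46.6 and 36.1 in mock libraries, so that the groups did not overlap. Prosalpha5, an alpha ring subunit (2R, 17412767 to 17413769, plus strand), had 23.5 and 37.0 in siAGO2 and 45.8 and 40.4 in mock libraries, again without overlap. Rpn3, a lid subunit of the PCI family (2L, 19051790 to 19053681, plus strand), had 33.1 and 40.4 in siAGO2 and 48.4 and 27.6 in mock libraries, and these overlapped. Rpt5, an ATPase (3R, 23752876 to 23754623, plus strand), had 17.6 and 40.9 in siAGO2 and 48.7 and 45.1 in mock libraries, without overlap. The summits of Prosbeta2, and those of Rpt5 in all libraries but mock 2, lay nearer to another gene, as set out below. Prosbeta6, a structural beta ring subunit (3L, 16609400 to 16610418, minus strand), had 9.33 in siAGO2 1 and 53.8 in siAGO2 2, against 55.6 and 44.9 in mock libraries. At Prosbeta6 the value of siAGO2 1, the shallowest library, stood far from the other 3, and its peak held 13 fragments there against 27 in siAGO2 2. Prosbeta5, which holds the chymotrypsin-like site, lay between these ends with 64.0 and 55.8 in siAGO2 and 64.2 and 58.2 in mock libraries.

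Over the 30 general genes the percentiles were lower in siAGO2 libraries, as they were over all genes. The mean of the medians was 54.7 ± 3.60 in siAGO2 and 61.5 ± 4.62 in mock libraries (SD, n = 2 each), a difference of −6.87 points (exact permutation test, two-sided p = 0.333). Both siAGO2 percentiles were below both mock percentiles at 10 of the 30 genes, against 42.9% of the 5175 genes, and above them at 1 gene (Rpn1), against 6.94%. At the other 19 the groups overlapped. The 10 genes were Prosalpha5, Prosalpha6, Prosbeta2, Rpt1, Rpt5, Rpt6, Rpn9, Rpn10, Rpn11 and Rpn13. The sign of the difference depended on how the percentile was taken. With all lists shortened to their equal number of best peaks the difference was 1.75 points, and with percentiles taken among the gene starts shared by all libraries it was 1.17 points. A peak of a given rank from the top has a higher percentile in a longer list, and both mock lists are longer.

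Fragments at the summit were then compared gene by gene, after each library was centred on its median over the 5175 genes. Of these genes 236 (4.56%) were higher and 40 (0.773%) lower in siAGO2 libraries at an adjusted p under 0.05 (limma, Benjamini-Hochberg), and no general subunit gene was among them. At the strongest peaks fragments differed less between the groups than at the median gene start. At srp, for example, they were 257 and 261 in siAGO2 libraries, against 292 and 286 in mock libraries. Centring on the median therefore leaves such peaks with higher values in siAGO2 libraries. The part of this in the calls, and in the changes at strong peaks such as that of Prosbeta7, was not tested. At an unadjusted p under 0.05 there were 903 genes (17.4%), of which 1 was a general subunit gene. This gene was Rpn1. Its peak held 60 and 71 fragments in siAGO2 libraries, against 127 and 76 fragments in mock libraries, and the centred log2 values were 0.78 and 0.79 in siAGO2 against 0.09 and 0.25 in mock libraries. The groups did not overlap on the centred scale. The log2 change was 0.61 (SE 0.23), with an adjusted p of 0.111 by limma with Benjamini-Hochberg adjustment. Prosbeta7 followed with a log2 change of 0.41 (SE 0.23, adjusted p = 0.380 by limma), from centred values of 1.53 and 1.49 in siAGO2 and 0.86 and 1.34 in mock libraries. Prosbeta1 had a log2 change of 0.38 (SE 0.23, adjusted p = 0.418 by limma), from centred values of 0.65 and 0.62 in siAGO2 and 0.21 and 0.30 in mock libraries. Neither change passed the threshold, and that of Prosbeta7 was 0.17 without mock 1. The groups did not overlap at either gene. Rpn1, Prosbeta7 and Prosbeta1 were picked for the largest changes, and the share of all genes without overlap on this scale was not computed. The count of 276 genes called in either direction was 20 without siAGO2 1, 162 without siAGO2 2, 18 without mock 1 and 440 without mock 2, with no general subunit gene called in any of them. The balance of higher and lower calls among all genes turned in some settings, with 6 higher and 14 lower without siAGO2 1, 6 higher and 12 lower without mock 1, and 1 higher and 8 lower with fragments minus local background (limma).

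At the other end, Prosbeta2 had a log2 change of −0.33 (SE 0.23, adjusted p = 0.489 by limma). Its peak held 10 and 12 fragments in siAGO2 libraries, against 46 and 22 fragments in mock libraries. These are the fewest of the 30 general genes in each library. The summits of this peak lay nearer to the start of mRpL39 in all 4 libraries, as set out below. Rpt5 had −0.33 as well (SE 0.24, adjusted p = 0.511 by limma), with centred log2 values of −1.22 in siAGO2 1 and −0.66 in siAGO2 2, against −0.47 and −0.75 in mock libraries. At Rpt5 the groups overlapped, and the change was −0.05 without siAGO2 1. The summit of the Rpt5 peak lay nearer to RanBP3 in all libraries but mock 2. Prosalpha5 had −0.18 (SE 0.23, adjusted p = 0.761 by limma). At Prosbeta2 and Prosalpha5 the centred values of both siAGO2 libraries were below those of both mock libraries. Altogether 20 of the 30 general genes had a positive and 10 a negative log2 change, and the change was positive at 63.2% of all genes fitted. Their median was 0.10, the same to 2 decimals as the median of 0.10 over all genes fitted, and the range from −0.33 to 0.61 lay within the middle 90% of all genes, −0.42 to 0.73. The median standard error of these genes was 0.23. With log2 of the deposited folds in place of fragments the median of the general genes was −0.03, against 0.07 over all genes.

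**Figure D3:**
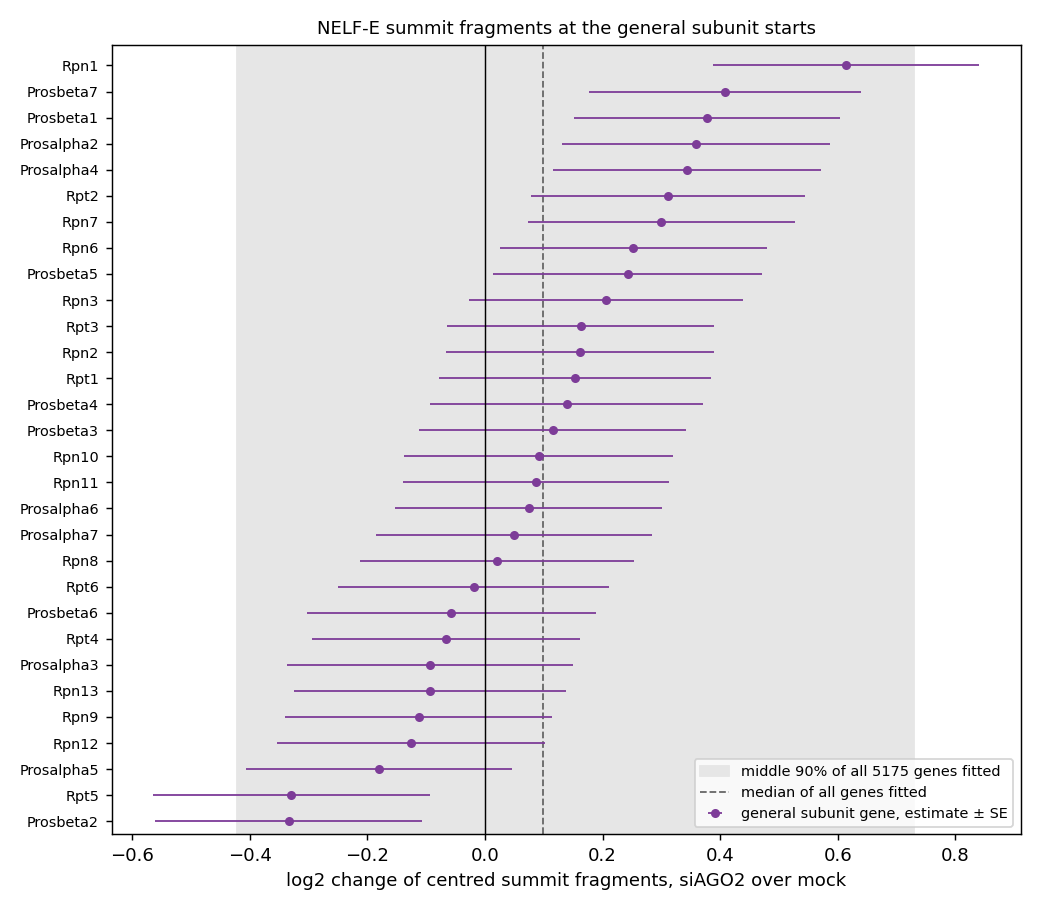
Log2 change of centred summit fragments, siAGO2 over mock (x axis), for the 30 general subunit genes with a start peak in all 4 libraries, as limma estimate ± SE (2 libraries per group). All points lie inside the shaded range that holds the middle 90% of the 5175 genes fitted, with Rpn1 at 0.61 as the highest and Prosbeta2 at −0.33 as the lowest.

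Where the peak lay relative to the start was examined next, since NELF acts just downstream of it. The median summit stood 97.5 and 100 bp downstream of the nearest annotated start in siAGO2 libraries, against 92.5 and 108 bp in mock libraries. The means were 98.8 ± 1.77 bp in siAGO2 and 100.25 ± 11.0 bp in mock libraries (SD, n = 2 each), a difference of −1.5 bp (exact permutation test, two-sided p = 1). At Prosbeta7 the summits lay 147 and 127 bp downstream in siAGO2 and 132 and 129 bp in mock libraries, and at Rpn1 they lay 76 and 79 bp in siAGO2 and 92 and 100 bp in mock libraries. At Rpt6, an ATPase, they lay 91 and 92 bp downstream in siAGO2 and 77 and 90 bp in mock libraries. The widest peaks of these 3 genes were those of Prosbeta7, at 775 and 706 bp in siAGO2 and 773 and 689 bp in mock libraries.

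Many general subunit genes share their promoter region with another gene. A start of a gene on the opposite strand lay within 1000 bp upstream of 22 of the 32 general genes, of 4 of the 16 testis-type genes and of 39.6% of all protein-coding genes. Genes of both classes were also short, with a median length of 1390 bp for general and 1282 bp for testis-type genes, against 2162.5 bp for all. At 11 general genes the summit of the highest-scoring start peak lay nearer to another gene in at least 1 library. The share of all genes at which this occurred was not computed. Of the 30 general genes with a start peak in all 4 libraries, 25 had one nearest to the own start in all 4, against 4114 of 5175 genes. At Rpn2 the summits lay upstream, at −352 and −419 bp in siAGO2 and at −360 and −352 bp in mock libraries, which is 94 to 161 bp downstream of Slbp, the gene of the histone mRNA stem-loop binding protein. A weaker peak stood at the start of Rpn2 itself, with 17 and 16 fragments in siAGO2 libraries, against none in mock 1 and 23 fragments in mock 2. At Prosbeta2 the summits lay upstream, at −403 to −395 bp, and 110 to 118 bp downstream of mRpL39, which encodes a mitochondrial ribosomal protein. A second peak nearer to Prosbeta2 was found in the mock libraries alone, with 39 and 18 fragments, and in neither of the shallower siAGO2 libraries. At Rpn8, the partner of the deubiquitinase Rpn11, the summits lay nearer to the kinase gene Slik. At Rpn13 they lay nearer to the cathepsin gene CtsL1. At Rpt5 the start of RanBP3 lies 42 bp away, and the summit was nearer to RanBP3 in both siAGO2 libraries and in mock 1, where it stood 1 bp from that start, and nearer to Rpt5 in mock 2.

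**Figure D4:**
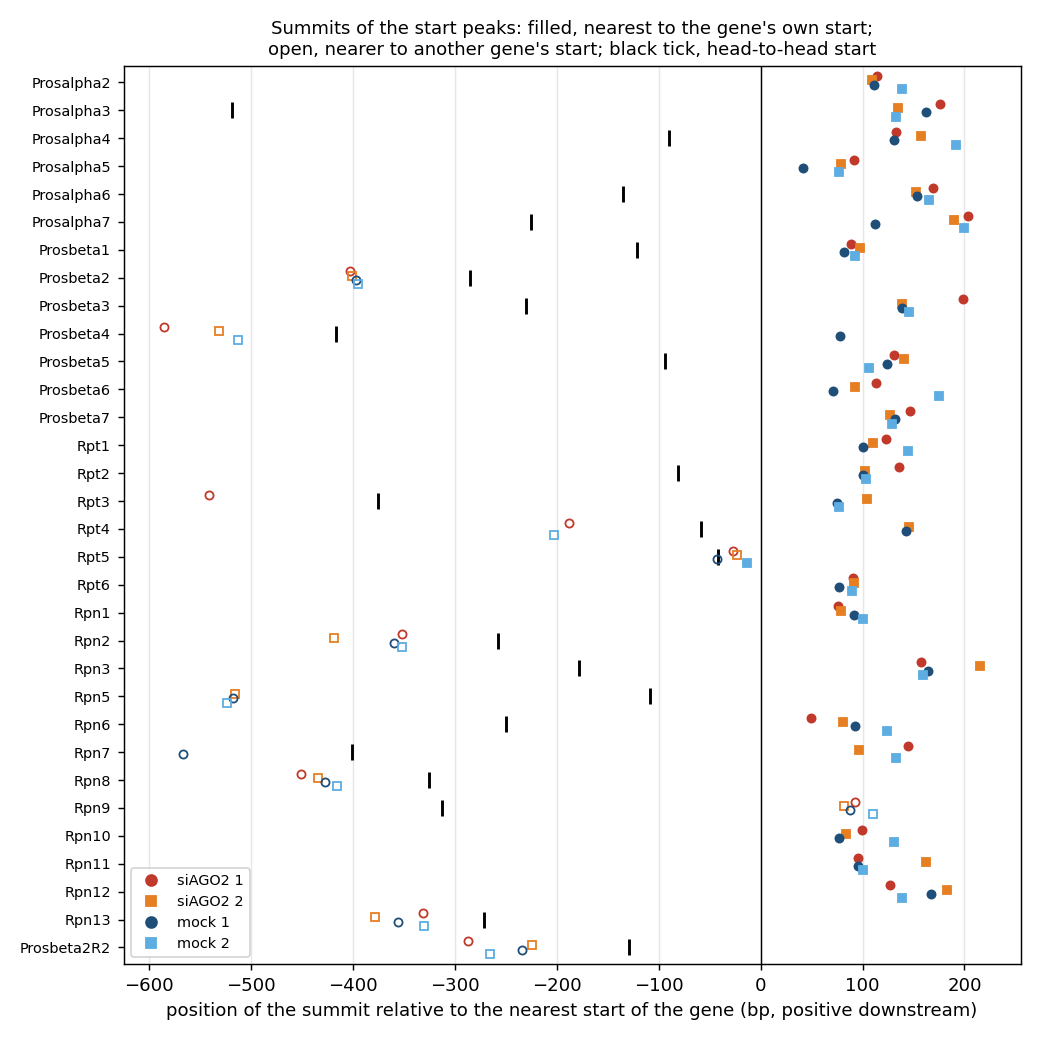
Position of the start peak summit relative to the nearest start of the gene (x axis, bp, positive downstream) for the 31 general genes with a start peak and Prosbeta2R2, with 1 symbol per siAGO2 and mock library. Filled symbols, nearest to the own start, lie between 42 and 215 bp downstream except at Rpt5 in mock 2 (−13 bp), and open symbols, nearer to another gene, gather upstream next to the black ticks that mark head-to-head starts.

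Counting only peaks whose summit was nearest to the own start, 25 general genes had one in all 4 libraries, against 29.4% of all genes, and 31 had one in at least 1 library, against 43.0% of all genes. None of the 16 testis-type genes had one in any library. The general genes with such a peak in fewer than 4 libraries were Prosbeta2, Rpt4, Rpt5, Rpn2, Rpn5 and Rpn9, besides Prosalpha1 with none. At all of the 25 genes the summit lay downstream of the start in each library, as it did at 84.5% of the 4114 genes with such peaks. The median distance of these own summits was 114 and 110 bp in siAGO2 libraries, against 100 and 129 bp in mock libraries.

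Prosbeta2R2, the single testis-type gene with a start peak (3R, 5217751 to 5219528, minus strand), was of this shared kind. Its peak held 23 and 26 fragments in siAGO2 libraries, against 83 and 42 fragments in mock libraries. The percentiles were 40.2 and 44.0 in siAGO2 and 44.8 and 48.9 in mock libraries, which is below the median of each list. The summits lay upstream of Prosbeta2R2, at −287 and −224 bp in siAGO2 and at −234 and −266 bp in mock libraries. They lay 158 and 95 bp downstream of the start of CG1116 in siAGO2 and 105 and 137 bp downstream in mock libraries, and CG1116 starts 129 bp from Prosbeta2R2 on the opposite strand. The proteins of Prosbeta2R2 and its general partner Prosbeta2 share 45.3% of aligned residues. Identity to the general partner ranged among the other testis-type genes, Prosalpha1R aside, between 38.4% at Rpn13R and 88.7% at Rpt6R. Rpt6R, the closest of these paralogs in protein sequence, had no peak, while Rpt6 had percentiles of 59.0 and 44.4 in siAGO2 and 74.9 and 66.5 in mock libraries. Likewise Prosalpha6T and Rpn12R had none, while Prosalpha6, an alpha ring gene, had 67.2 and 67.1 in siAGO2 and 78.0 and 71.2 in mock libraries. Rpn12, a lid subunit gene, had 46.6 and 38.6 in siAGO2 and 65.4 and 43.8 in mock libraries.

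Peaks over the gene body were examined next. A peak wholly outside the start window was found over 1 and 2 general genes in siAGO2 libraries, against 0 and 0 in mock libraries (1.5 ± 0.707 in siAGO2 and 0 ± 0 in mock libraries, SD, n = 2 each; exact permutation test, two-sided p = 0.333). These 3 of 32 genes stand against 8.17% of all genes with such a peak in at least 1 library. The genes differ in length, with a median of 1390 bp for general genes and 2162.5 bp for all. The peaks were weak, at percentile 6.85 over Rpt3 in siAGO2 1 and at percentiles 23.4 over Rpn8 and 5.53 over Rpt6 in siAGO2 2. None recurred in the other library of the group. With a start window of 1500 bp none remained, but that window covers most general genes whole and leaves little body to examine. No testis-type gene had a body peak.

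Genes that build, feed or control the proteasome mostly had a start peak too. Of 16 related genes, 12 had a start peak in all 4 libraries, against 37.0% of all protein-coding genes, and 16 in at least 1, against 48.8%. The highest were Ubi-p63E, a polyubiquitin gene, with percentiles of 98.9 and 98.3 in siAGO2 and 98.1 and 97.6 in mock libraries, and cnc, the gene of the CNC factor that drives proteasome genes, with 95.0 and 96.5 in siAGO2 and 97.0 and 96.6 in mock libraries. Uba1, the ubiquitin-activating enzyme, had 95.4 and 93.4 in siAGO2 and 89.1 and 93.3 in mock libraries. In each library these 3 genes stood above every proteasome subunit gene other than Prosbeta7. Pomp, the assembly chaperone of the core, had 64.9 and 58.3 in siAGO2 and 66.5 and 65.9 in mock libraries, within the range of the subunits. A start peak was missing in some libraries at 4 related genes. PI31, a proteasome regulator, had one in mock 2 only, and Npl4, a cofactor of the TER94 segregase, in the mock libraries only at percentiles 16.3 and 2.70. Sem1, a small 19S subunit, lacked one in siAGO2 2, and the shuttle factor gene Rad23 lacked one in siAGO2 1. All of these absences but that of PI31 from mock 1 fell in the shallower siAGO2 libraries. The part of depth in this was not tested.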

How the data were processed

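Per the labels and methods, the authors trimmed 50 bp single-end reads with cutadapt (1.10 in the submitters' processing notes), aligned them to dm6 with Bowtie2, removed reads with a mapping quality under 20 and duplicates (Picard 2.11.0), and called peaks of each of the 4 NELF-E libraries against input with MACS2 2.1.1.20160309. The effective genome size is not given in the sources used here. The 4 input samples come without a peak list and were not used here. The deposited score is the −log10 q-value times a constant, cut to a whole number, and the deposited fold is the ratio of summit pileup to local background. The authors' lists also hold the −log10 p-value and −log10 q-value of each summit.

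The lists hold no reads per region, so the study's count model could not be used. Fragments at each summit were solved from the deposited fold and −log10 p for all 26987 peaks (in mock 1 after a pileup scale of 0.919, with 5 peaks that had several solutions). Each gene took its highest-scoring start peak, and log2 fragments, centred on the median of each library, were compared with limma 3.58.1 (R 4.3.3) and Benjamini-Hochberg adjustment over genes with a start peak in all 4 libraries, which conditions the fit on genes bound in both groups. A single value per library was compared by permuting the library labels in all possible ways (exact, two-sided). Scripts (Python 3.11.15, Biopython 1.88) were tested on simulated data. Gene models were Ensembl BDGP6. The median peak had 26 and 29 fragments in siAGO2 and 69 and 41 in mock libraries, and a region without a peak is under the threshold of its list, not free of NELF-E.

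The members and lists were chosen with earlier results of these data known. Genes named with values were the 5 highest and 5 lowest general genes by mean percentile, general genes without a start peak in some library, testis-type genes with one and their partners, the 3 largest and 3 smallest log2 changes, any general gene with an adjusted p under 0.05, members with a body peak in all 4 libraries (none), and related genes that lacked a start peak in some library. Other genes given with values were chosen after these were seen. Alternatives were other start windows and overlap rules, a stricter q-value, lists of equal length, other scalings, each peak once and each library left out. The own-start rule, a crossed block and unique 50-base windows were added after seeing the data. Same-numbered replicates are not stated to share a culture or day, and their deviations from the group means had a correlation of −0.196 over 5175 genes. This value cannot decide whether the numbers pair the samples, since replicate 1 was the shallower library in siAGO2 and the deeper one in mock.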

Additional observations from a re-analysis of the deposited data

How the results depend on the processing

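Between 25 and 31 general genes and at most 1 testis-type gene had a start peak in a library under every start rule tried. The siAGO2 minus mock difference in median percentile of the general genes changed sign with equal-length lists (1.753) and with percentiles among shared starts (1.174), and ran from −10.1 to −3.60 when 1 library was left out. The difference in median summit distance was 4 bp with the 5′ end of the gene model only, and ran from −9.25 to 6.25 bp with 1 library left out, the highest being without mock 2. No general gene had a body peak with a start window of 1500 bp (difference 0), which is longer than the median general gene of 1390 bp. With the window of 500 bp and 1 library left out the difference ran from 1 to 2 genes. The number of genes called by limma was 276, 85 with log2 of the deposited fold, 9 with fragments minus local background (1 higher and 8 lower) and 121 with genome-wide background scaling. It ran from 18 to 440 with 1 library left out, where the lone library of a group is assumed to vary like the other group. No general gene was called under any of them, with lowest adjusted p-values between 0.0579 and 0.909 (limma). The median log2 change of the general genes was −0.0347 with deposited folds and 0.141 with genome-wide background scaling, and ran from 0.0796 to 0.187 with 1 library left out. The cause of these shifts was not tested. The log2 changes of Rpn1, Prosbeta7, Prosbeta1, Prosbeta2, Rpt5 and Prosalpha5 kept their sign in every alternative that could be fitted. Prosbeta2 and Rpt5 could not be fitted under the own-start rule, nor Prosbeta2 with the stricter q-value.

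With the replicate number as a block, 187 genes were called (limma) and the median of the general genes stayed at 0.103. With the replicate numbers crossed as a block, added after seeing the data, 455 genes were called. No general gene was called with either block.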
